A study of Mus musculus with 9 samples.

Results

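The choroid plexus is the epithelium of the brain ventricles that secretes cerebrospinal fluid, and 8 genes known for high expression in it were followed across the forebrains of mice given an antipsychotic or no drug. The genes are Ttr, Kl, Folr1, Prlr, Igf2, Igfbp2, Enpp2 and Aqp1, and their probe sets were taken from an Affymetrix U74Av2 array by the gene symbol in the platform annotation. Of the 8 genes, 6 had a named probe set, among 8251 genes named on the array, and these 6 genes were represented by 9 probe sets. Prlr, the prolactin receptor, and Enpp2, the secreted enzyme autotaxin that makes lysophosphatidic acid, had no probe set named in that annotation and were not analysed here.

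The study set the long-term expression profiles of 2 antipsychotics side by side in male C57BL mice, whose age the labels give as 4 weeks. Clozapine, an atypical antipsychotic, was given in the drinking water at 12 mg/kg/day, the dopamine receptor blocker haloperidol, a typical antipsychotic, at 1.6 mg/kg/day, and the control mice drank water without drug, each for 4 weeks after 2 weeks of acclimatisation. All mice were housed singly, and 10 were assigned to each treatment. RNA from 3 of the 10 was hybridised without pooling, so that each of the 9 arrays is 1 animal and each treatment has 3 arrays. The labels name the right hemisphere in the source entry and the left in the tissue entry, and which side was used was therefore not settled. The dissection is a whole forebrain hemisphere, in which the choroid plexus is a small part, and how much of the ventricle lining was kept in each sample is not given in the sources used here.

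Choroid plexus epithelium pumps ions and water from blood into the ventricles and loads the fluid with carrier proteins and growth factors. Transthyretin, the product of Ttr, carries thyroid hormone and, through retinol-binding protein, vitamin A, and in the brain it is known chiefly from this epithelium. The other genes are less restricted: Igf2 and Igfbp2 are also made by the leptomeninges, the membranes around the brain, Igfbp2 by astrocytes as well, and Kl by some neurons. Because these arrays measured whole tissue, fewer choroid plexus cells in a sample and less of an RNA per cell cannot be told apart.

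Values are log2 values of the deposited table, made by the authors with GCRMA, a method that corrects background from probe sequence and normalises arrays to one another. Probe sets were tested if their average over the 9 arrays exceeded 3.448, the 40th percentile, which kept 7453. Of the 9 member probe sets, 5 passed, 1 each for Ttr, Igf2, Igfbp2, Kl and Folr1. Second probe sets of Igf2 and Folr1 and both of Aqp1 lay below the filter.

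Brain tissue was met by its markers, since 9 of 9 measured neuronal genes and 9 of 9 measured astrocyte genes passed the filter. Whether these genes set the forebrain apart from other brain regions was not tested. The choroid plexus label was met only in part. Of 41 other choroid plexus genes on the array, 26 passed the filter and 15 did not. Among the 15 were the tight junction gene Cldn2, at 1.77 to 1.96, the secreted protease inhibitor-like gene Wfdc2, at 2.35 to 2.50, the keratin gene Krt8, also at 2.35 to 2.50, the bicarbonate transporter gene Slc4a5, at 2.79 to 2.95, and the collagen gene Col8a1, at 2.96 to 3.14. Several genes that passed, such as Car2, Clu and Slc12a2, are also expressed by glia or neurons. The genes described below are therefore called by their names, with Ttr as the most specific of those measured above the filter.

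Some arrays stood apart on other grounds. Haloperidol replicate 3 carried the pituitary hormone RNAs Prl at 11.76, against 3.38 to 3.84 in the other 8 arrays, and Gh at 12.57. Control replicate 3 had the widest gap between the 3' and the 5' probe sets of the control RNAs Actb and Gapdh, which measures 3' bias of the labelled RNA, at 1.73 against 0.81 to 1.46 elsewhere on the log2 scale. It also had the lowest level of the neuronal list, at -0.718 relative to the 9-array mean, against -0.214 to 0.386 in the others. The genes of that list were not lowered alike in control replicate 3. Camk2a stood at 3.87 and Syt1 at 8.57, against averages of 7.52 and 10.44. Gad1 stood at 12.34 and Stmn2 at 10.62, against averages of 12.37 and 10.63. Arrays were also alike across treatments. Over tested probe sets clozapine 1, control 1 and haloperidol 3 correlated at 0.9895 to 0.9937 with one another. Clozapine 3, haloperidol 1 and control 2 did so at 0.9897 to 0.9941, and clozapine 2 and haloperidol 2 at 0.9926. Arrays of one treatment correlated at 0.9472 to 0.9873. The part of these sets in the member values was not tested.

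No member passed the test for a difference between treatments. Ttr varied 1.92-fold between single mice, from 8.67 to 9.61, and its highest and lowest values within haloperidol lay almost as far apart as those of the whole series. Igf2 was low in 1 clozapine mouse, Folr1 high in 1 haloperidol mouse, and Kl high in 1 clozapine and 1 control mouse. Limma's moderated test called 0 of the 5 member probe sets in every contrast, and 0 had an unadjusted p under 0.05.

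Ttr stood at 9.46, 8.77 and 8.87 in control replicates 1, 2 and 3. With clozapine it stood at 8.96, 8.67 and 8.97, and with haloperidol at 9.33, 8.76 and 9.61. The highest arrays were haloperidol 3, control 1 and haloperidol 1, the lowest were clozapine 2, haloperidol 2 and control 2, and the 3 treatments overlapped. Clozapine 1 and 3 lay above controls 2 and 3 and beneath control 1, and clozapine 2 lay beneath all 3 controls. Means were 9.04 ± 0.37 in controls, 8.87 ± 0.17 with clozapine and 9.24 ± 0.43 with haloperidol (SD, n = 3).

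The clozapine mean of Ttr lay at -0.17 ± 0.25 log2 units from the controls (SE, 95% confidence interval -0.75 to 0.41), with an adjusted p of 1 in limma. The haloperidol mean lay 0.20 ± 0.25 above (interval -0.38 to 0.78, adjusted p = 0.841), and the drugs differed by -0.37 ± 0.25, clozapine minus haloperidol (interval -0.95 to 0.21, adjusted p = 0.965). Without control 1 the clozapine difference turned to 0.0438, and without haloperidol 3, the array with pituitary RNA, the haloperidol difference fell to 0.0111. Without haloperidol 2 it was 0.435, and without control 2 it was 0.0666. Over the 9 left-out arrays the difference between drugs stayed below 0, at -0.605 to -0.18.

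**Figure D1:**
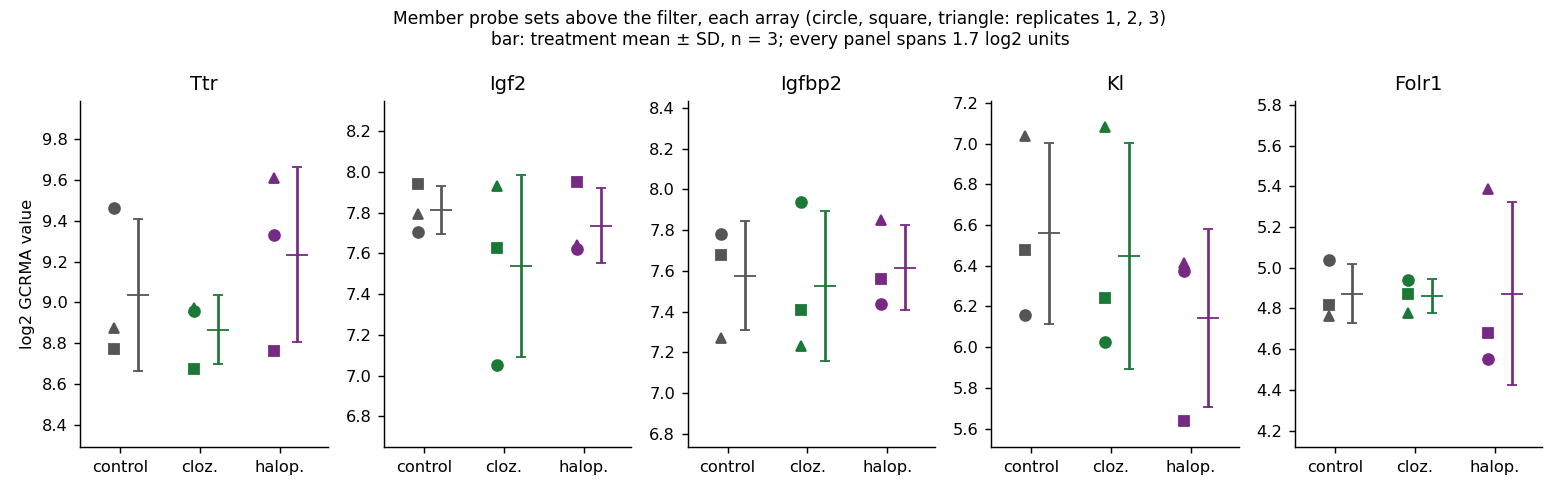
Log2 GCRMA values of the 5 member probe sets above the filter in each of the 9 arrays, by treatment, with symbols for replicates 1 to 3 and bars for the mean ± SD (n = 3). The treatments overlap in every panel, and single animals lie apart in Igf2 (clozapine 1, 7.05), Folr1 (haloperidol 3, 5.39) and Kl (clozapine 3, 7.08, and control 3, 7.04).

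Igf2, an imprinted growth factor that signals through the IGF-1 receptor, was measured above the filter by 1 of its probe sets. In controls it stood at 7.71, 7.94 and 7.80, with clozapine at 7.05, 7.63 and 7.93, and with haloperidol at 7.62, 7.95 and 7.64. The value of clozapine 1 was the lowest, and the other 8 arrays lay between 7.62 and 7.95. The clozapine mean differed from the controls by -0.28 ± 0.21 (interval -0.77 to 0.21, limma adjusted p = 1), by -0.0355 without clozapine 1 and by -0.475 without clozapine 3. The haloperidol difference was -0.08 ± 0.21 (interval -0.57 to 0.41), and clozapine minus haloperidol was -0.20 ± 0.21, or 0.0415 without clozapine 1. Of the leptomeningeal and fibroblast genes, 22 of 28 passed the filter. Their summed level was 0.056 in clozapine 1, -0.075 to 0.132 in controls, -0.050 to 0.056 with clozapine and -0.040 to 0.041 with haloperidol. Single genes went either way in clozapine 1. Dcn was lowest there, at 8.04 against 8.23 to 9.32 elsewhere, and Mgp, at 7.11, lay within the 6.59 to 7.46 of the other arrays. Col1a1, at 6.76 against 5.64 to 6.47, and Aebp1, at 4.94 against 4.07 to 4.91, were highest there. The part of leptomeningeal RNA in the Igf2 value was not tested. Of the 22, 8 lay above the controls with clozapine and 9 with haloperidol, and limma called 0. Over all tested probe sets 49.5% and 46.4% lay above.

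Igfbp2, which binds IGFs and limits their access to receptors, stood at 7.78, 7.68 and 7.27 in controls, 7.94, 7.41 and 7.23 with clozapine and 7.44, 7.56 and 7.85 with haloperidol. Clozapine 1, haloperidol 3 and control 1 were the 3 highest arrays, 1 of each treatment, and clozapine 3 and control 3 were the lowest. The same 3 highest arrays had the highest summed levels of the neuronal list, at 0.386, 0.283 and 0.302, and the highest medians of all tested probe sets, at 6.28, 6.33 and 6.30 against 6.10 to 6.25 in the other arrays. The astrocyte list stood at -0.034, -0.206 and -0.119 in those 3 arrays and was highest in control 3, at 0.526. The part of these in the Igfbp2 values was not tested. The differences were -0.05 ± 0.21 for clozapine (interval -0.54 to 0.44) and 0.04 ± 0.21 for haloperidol (interval -0.45 to 0.54). The haloperidol value changed sign, to -0.0068, when each array was centred on its median, and was -0.112 without control 3 and -0.076 without haloperidol 3. The clozapine value was 0.098 without clozapine 3.

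Kl encodes klotho, a membrane protein that acts as co-receptor for FGF23 and is also shed into the cerebrospinal fluid. Its values were 6.16, 6.48 and 7.04 in controls, 6.03, 6.24 and 7.08 with clozapine and 6.38, 5.64 and 6.41 with haloperidol. Clozapine 3 and control 3 were the highest arrays and haloperidol 2 the lowest, and the highest and lowest arrays were 2.72-fold apart. The 3'-to-5' gap was 1.73 in control 3, 1.14 in clozapine 3 and 0.87 in haloperidol 2, and its part in the Kl values was not tested. Haloperidol lay at -0.42 ± 0.35 from the controls (interval -1.22 to 0.38, limma adjusted p = 0.735), and at -0.164 without haloperidol 2 and -0.176 without control 3. Clozapine lay at -0.11 ± 0.35 (interval -0.91 to 0.69) and at 0.131 without control 3 and 0.101 without clozapine 1. Clozapine minus haloperidol was 0.31 ± 0.35 (interval -0.49 to 1.11), and -0.0082 without clozapine 3.

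Folr1, the membrane-anchored folate receptor through which choroid plexus epithelium moves folate into the fluid, lay above the median of all probe sets, 4.02 to 4.21, on each of its arrays. Its values were 5.04, 4.82 and 4.76 in controls, 4.94, 4.87 and 4.78 with clozapine and 4.55, 4.68 and 5.39 with haloperidol. Haloperidol 3 was the highest array, haloperidol 1 and 2 were the lowest, and the treatments overlapped. The means were nearly the same, 4.87 ± 0.145 in controls, 4.86 ± 0.08 with clozapine and 4.87 ± 0.45 with haloperidol (SD, n = 3). The haloperidol difference of 0.0019 ± 0.21 (interval -0.47 to 0.48) was the balance of values on either side and became -0.255 without haloperidol 3. The clozapine difference was -0.0096 ± 0.21 (interval -0.48 to 0.46).

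**Figure D2:**
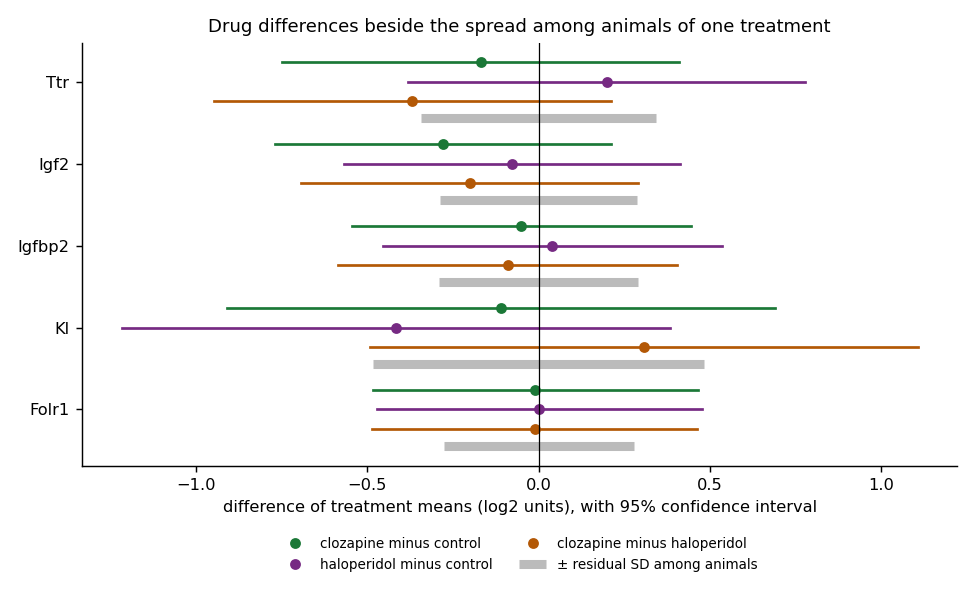
Differences of treatment means for the 5 member probe sets (log2 units; points) with 95% confidence intervals from limma (lines), above a grey bar of plus and minus the residual SD among animals. All 15 intervals include 0, and the points lie within the grey bar except Ttr between the drugs, at -0.37 against a residual SD of 0.344.

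Over all 7453 probe sets limma called 0, or 0% of those tested, at an adjusted p of 0.05 in each contrast and in the F test over the 3 treatments, so 0 calls among 5 member probe sets equals the background. At an unadjusted p under 0.05 the background was 0.939% for clozapine against control, 9.12% for haloperidol against control, 3.64% between the drugs and 3.37% in the F test, beside 0 of 5 members each time. Groups of 3 arrays did not overlap for 3.43%, 21.7% and 17.1% of tested probe sets in the same 3 contrasts, and for 0 of 5 members. The clozapine differences of the 5 members were all below 0, with a median of -0.11 against -0.0013 over all probe sets, while 3 lay above and 2 below 0 with haloperidol, with a median of 0.0019 against -0.018. Over all tested probe sets 49.5% lay above 0 with clozapine and 46.4% with haloperidol. These shares are the background for the counts of list genes above the controls with all 9 arrays. Both drugs were set against the same 3 controls, so the signs of the 2 contrasts are not independent. The signs of the clozapine differences for Ttr, Kl, Folr1 and Igfbp2 turned when single arrays were left out.

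Variation among mice of one treatment was wider for the members than for most tested probe sets. That background was not matched for signal level, and the part of signal level in the percentiles below was not tested. The residual standard deviation, which is the spread around the treatment means, was 0.483 for Kl, 0.344 for Ttr, 0.290 for Igfbp2, 0.287 for Igf2 and 0.277 for Folr1, against a median of 0.196 over all tested probe sets. All 5 lay above that median, Kl at the 91.6th percentile, Ttr at the 79.8th, Igfbp2 at the 71.4th, Igf2 at the 70.9th and Folr1 at the 69th. Without clozapine 1 or without haloperidol 3 the count was 4 of 5, and without any 1 of the other 7 arrays it was 5.

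For Kl, Folr1 and Igfbp2 the range within each of the 3 treatments was wider than the largest difference between treatment means. For Ttr this held in controls, at 0.691, and with haloperidol, at 0.849, against a largest difference of means of 0.368, while the clozapine mice spanned 0.302. For Igf2 it held with clozapine, at 0.880, and haloperidol, at 0.331, against 0.278, while the controls spanned 0.235. The share of the variance that lay between treatment means was 22.3% for Ttr, 19.9% for Igf2, 16.7% for Kl, 2.4% for Igfbp2 and 0% for Folr1. The median share over all tested probe sets was 18.4%.

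The members did not form 1 common profile. Over the 9 arrays Ttr had a Pearson r of 0.552 with Folr1 (exact permutation p = 0.119, Spearman rho 0.383 with p = 0.312) and 0.413 with Igfbp2 (exact permutation p = 0.262, rho 0.350 with p = 0.359). Both rested on haloperidol 3 and control 1, the 2 arrays farthest from the median of Ttr, without which r was -0.607 for Folr1 and -0.081 for Igfbp2. With Igf2 r was -0.183 (exact permutation p = 0.672, rho -0.317 with p = 0.41), and with Kl it was 0.024 (exact permutation p = 0.952, rho 0.183 with p = 0.644). Without those 2 arrays r was -0.251 and 0.197. Of the 5 relations computed, counting Aqp1, 0 passed after Benjamini-Hochberg adjustment, with adjusted p of 0.299 for Folr1, 0.437 for Igfbp2, 0.84 for Igf2 and 0.952 for Kl, and 0.513 to 0.644 for the rank values of all 5. After treatment means were subtracted, r was 0.616 for Folr1, 0.391 for Igfbp2, -0.411 for Igf2 and 0.208 for Kl.

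**Figure D3:**
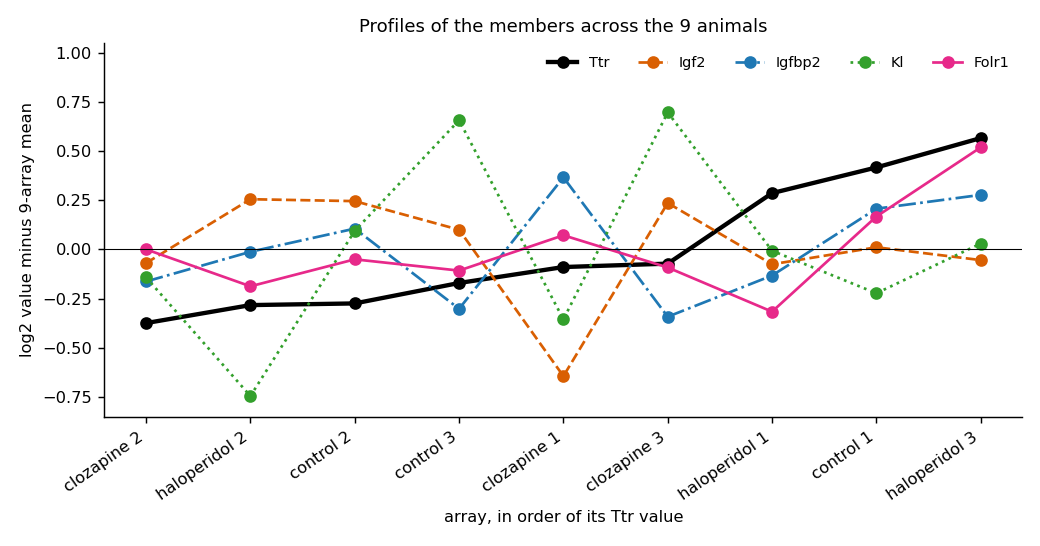
Log2 value minus the 9-array mean for the 5 member probe sets above the filter, with arrays in order of their Ttr value. Ttr and Folr1 are both high in control 1 and haloperidol 3, whereas Kl peaks in control 3 and clozapine 3 and Igf2 has its lowest value in clozapine 1.

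Ttr was also compared with 3 measures of the arrays as wholes. Its r with the median of all tested probe sets was 0.745 (exact permutation p = 0.0209, adjusted over the 3 measures 0.0626) and rho was 0.833 (exact permutation p = 0.00827, adjusted 0.0248), and r was 0.459 without haloperidol 3 and control 1. Its r with the 3'-to-5' gap was -0.395 (exact permutation p = 0.292, adjusted 0.292, rho -0.300 with p = 0.437), and 0.088 without those arrays. With the median of all probe sets, which is set mostly by low values, r was -0.538 (exact permutation p = 0.137, adjusted 0.206, rho -0.417 with p = 0.27), and -0.583 without them. Centring each array on its median of tested probe sets narrowed the range of Ttr from 0.940 to 0.798 and left haloperidol 3, control 1 and haloperidol 1 as its 3 highest arrays.

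Genes with a profile most like Ttr were taken as the 10 with the highest Pearson r over the 9 arrays among tested probe sets with 1 gene symbol, as a description with no test because they were picked for this value. They were Zswim7 at 0.972, Lsm2 at 0.954, Cyrib at 0.942, Tmem168 at 0.938, Synj2bp at 0.937, Penk at 0.931, C2cd3 at 0.930, Ndufaf1 and Taf11 at 0.917 and Drc1 at 0.914. None of the 10 was on the choroid plexus list, but only 26 genes of that list stood among the 7453 tested probe sets, so this carries little weight. Penk, which encodes a precursor of enkephalins in striatal neurons, stood at 9.54 in haloperidol 3, 9.30 in control 1 and 8.96 in haloperidol 1, against 8.16 to 8.71 in the other arrays, and its second probe set had an r of 0.78. Drc1, a part of the dynein regulatory complex of motile cilia, lay at 4.02 in haloperidol 3 and 3.95 in control 1 and at 3.23 to 3.49 elsewhere. Its average exceeded the filter of 3.448 only through haloperidol 3 and control 1, where Ttr was highest. Second probe sets of Tmem168 and Ndufaf1 gave r of -0.73 and -0.22, and neither of the other probe sets of Synj2bp had an r above 0. Without haloperidol 3 and control 1 the 10 genes kept an r of 0.762 to 0.967.

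Of the other choroid plexus genes, 26 above the filter had r with Ttr from -0.713 to 0.696, with a median of 0.059 against 0.045 over all tested probe sets. An r over 0.5 was found for 5 of the 26, Perp at 0.696, Car12 at 0.672, Fxyd1 at 0.626, Mdk at 0.513 and Ifi27 at 0.505, and for 18.7% of all tested probe sets. Car12, a membrane carbonic anhydrase, stood at 4.71 in haloperidol 3 and 4.68 in control 1 but at 4.35 in haloperidol 1, and Fxyd1, a regulator of the sodium pump, at 6.02, 5.93 and 5.34 in the same arrays. In clozapine 1, where Ttr was near its middle, Fxyd1 was at 6.01.

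**Figure D4:**
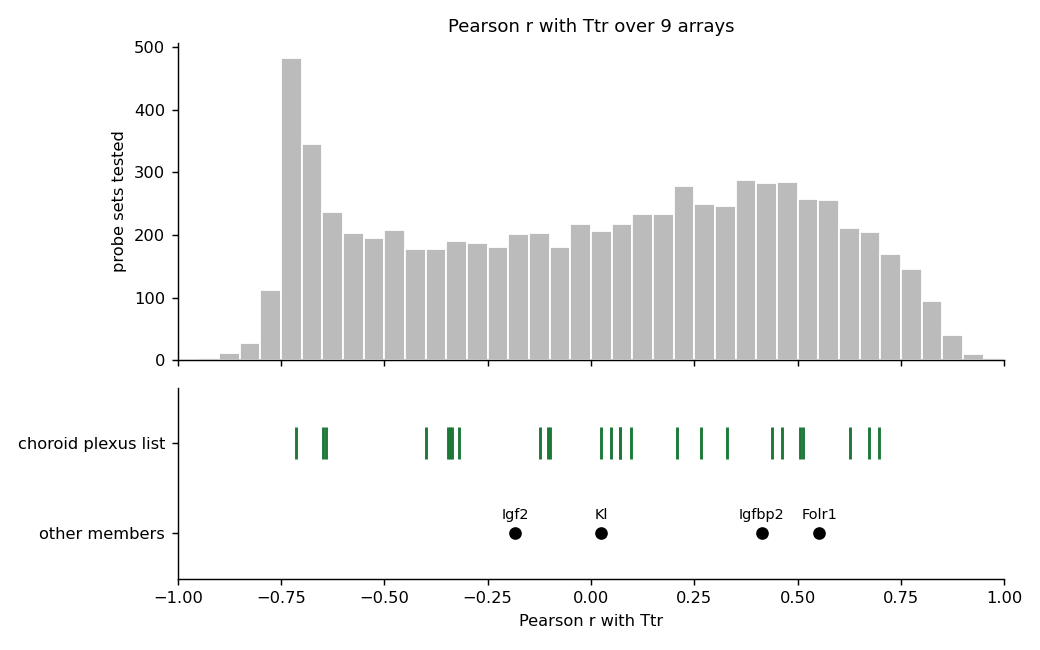
Pearson r with Ttr over the 9 arrays for all 7453 tested probe sets (grey bars, number of probe sets in steps of r), for the 26 other choroid plexus genes above the filter (green ticks) and for the other 4 members (black points). The ticks spread from -0.713 to 0.696, within the wider spread of the background.

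The same 26 genes showed no call in any contrast. Clozapine means exceeded control means for 14 of 26 genes (median log2 difference 0.012) and haloperidol means for 12 of 26 (median -0.018). At an unadjusted p under 0.05 there was 0 of 26 with clozapine and 1 with haloperidol, the tight junction gene Cldn1 at -0.38 ± 0.13 (limma adjusted p = 0.53), whose values of 3.84 to 4.54 were low. The brightest genes were Car2, carbonic anhydrase 2, Clu, the secreted chaperone clusterin, Slc12a2, a sodium, potassium and chloride cotransporter, and Atp1b1, a sodium pump subunit. Their differences with clozapine were -0.05 ± 0.13, 0.12 ± 0.30, -0.04 ± 0.35 and 0.01 ± 0.07, and with haloperidol 0.02, 0.065, -0.23 and -0.055. Without control 3 the clozapine differences of Clu and Slc12a2 turned to -0.19 and 0.22 and the haloperidol differences of Car2, Clu and Slc12a2 to -0.07, -0.24 and 0.03, and without haloperidol 3 that of Clu was -0.04. Ezr, which anchors microvilli, lay at 0.03 and 0.16, and the serotonin receptor gene Htr2c, which choroid plexus shares with neurons, at 0.265 ± 0.34 and 0.35 ± 0.34, and at 0.08 and 0.165 without control 3. Without control 3 the counts above the controls were 13 and 10 of 26, and without haloperidol 3 the haloperidol count was 11.

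Of the ion and water transport genes of fluid secretion, 11 of 17 passed the filter and 0 were called. With clozapine 7 of 11 and with haloperidol 6 of 11 lay above the controls, with medians of 0.013 and 0.019. Without control 3 the counts were 5 and 3 of 11, with medians of -0.037 and -0.07, and without haloperidol 3 the haloperidol count was 5, with a median of -0.062. Stk39, a kinase that activates Slc12a2, lay at 4.80 in control 3 against 5.88 to 7.19 elsewhere, and its differences of 0.63 ± 0.49 and 0.77 ± 0.49 were 0.15 and 0.30 without that array. Wnk1, a kinase upstream of it, lay at 0.01 and 0.215, and at -0.04 and 0.17 without control 3. Of the aquaporins, 1 of 6 on the array passed the filter, the astrocytic Aqp4, at 0.40 ± 0.275 with clozapine (limma adjusted p = 1) and 0.49 ± 0.275 with haloperidol (limma adjusted p = 0.601).

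Among partners of Igf2 and Igfbp2, 11 of 14 genes passed the filter and 0 were called. Clozapine means were the higher for 5 of 11 (median log2 difference 0) and haloperidol means for 4 of 11 (median -0.13). Igf1r, the receptor through which Igf2 acts, lay at 0.25 ± 0.23 with clozapine and 0.21 ± 0.23 with haloperidol, and Igf2r, which clears Igf2, at 0 and 0.10. Igfbp6, a binding protein that prefers Igf2, lay at -0.29 ± 0.13 with clozapine (limma adjusted p = 1) and -0.33 ± 0.13 with haloperidol (limma adjusted p = 0.53). Its values were 7.06, 6.75 and 6.69 in controls, 6.55, 6.41 and 6.65 with clozapine and 6.58, 6.34 and 6.59 with haloperidol, so that all 6 drug arrays lay beneath the 3 controls, which both contrasts share. Groups did not overlap for 3.43% of all tested probe sets with clozapine and 21.7% with haloperidol. Igfbp4 lay at 0.11 ± 0.26 and 0.31 ± 0.26, and at -0.18 and 0.03 without control 3. The lowest unadjusted p of these genes belonged to Irs1, a docking protein below the IGF-1 receptor, at -0.03 with clozapine and -0.30 ± 0.10 with haloperidol (limma adjusted p = 0.53). Igf1 lay at -0.12 and -0.37 ± 0.15 (limma adjusted p = 1 and 0.53). Both had low values, 3.73 to 4.26 and 3.97 to 4.68. Without haloperidol 3, 3 of the 11 genes lay above the controls with haloperidol.

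Partners of the other members gave 0 calls as well; of each pair of values that follows, the first is clozapine and the second haloperidol minus control. Of the thyroid hormone and retinol genes, 9 of 13 passed the filter and 3 of 9 lay above the controls with each drug. Thra, a thyroid hormone receptor, lay at -0.04 and -0.10, Crym, which binds thyroid hormone in the cytosol, at 0.33 and 0.33, Dio2, which activates the hormone, at -0.22 and -0.28, and Rbp4, the retinol carrier that binds transthyretin, at -0.10 and 0.03. Rxrb, a retinoid receptor, had the lowest unadjusted p, at -0.20 ± 0.11 and -0.26 ± 0.11 (limma adjusted p = 1 and 0.53).

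Of the klotho partners 4 of 10 passed the filter, 1 above the controls with clozapine and 2 with haloperidol. The phosphate transporter gene Slc20a1 lay at -0.01 and 0.09, and the FGF receptor genes Fgfr1 at 0.12 ± 0.09 and 0.30 ± 0.09, Fgfr2 at -0.19 ± 0.12 and -0.09 ± 0.12 and Fgfr3 at -0.19 ± 0.20 and -0.48 ± 0.20, with limma adjusted p of 0.53 for Fgfr1 and Fgfr3 with haloperidol. Without control 3 the values of Fgfr3 were 0.04 and -0.25. Of the folate genes 4 of 9 passed, 2 above the controls with clozapine and 1 with haloperidol: Ggh, which trims stored folate, at 0.195 and 0.195, the carrier genes Slc46a1 at -0.07 and -0.095 and Slc19a1 at -0.10 and -0.18, and the methionine synthase gene Mtr at 0.01 and -0.18.

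Of the prolactin receptor pathway 7 of 13 passed, and 3 lay above the controls with each drug. The suppressor gene Socs2 lay at 0.05 and 0.03, and at 0.43 and 0.42 without control 3, the kinase gene Jak2 at -0.23 and 0.185, and the suppressor gene Cish at -0.16 and -0.19. Prl itself was at 2.59 ± 1.95 with haloperidol through haloperidol 3 alone, and at -0.17 without it. Of the lysophospholipid genes 5 of 8 passed, 2 above the controls with each drug. The lipid phosphatase genes Plpp3 and Plpp1 lay at -0.03 and 0.02 and at 0.20 and 0.30, the receptor gene Lpar1 at -0.23 and -0.165, and Pla2g4a, which releases lysophospholipids, at -0.07 and -0.28 ± 0.09 (limma adjusted p = 1 and 0.53). Without control 3 Plpp3 was at 0.12 and 0.18.

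The 4 member probe sets below the filter moved with the low end of each array. Aqp1, the water channel of the apical choroid plexus membrane, was measured at 2.23 to 2.49 by 1 probe set and at 1.54 to 1.65 by the other. The low probe set of Folr1 lay at 2.46 to 2.76 and that of Igf2 at 1.16 to 1.33, although the latter was designed from the same GenBank record as the Igf2 probe set above the filter. In all 4, clozapine 2 was the highest and haloperidol 3 the lowest array, and so it was for the median of the 4969 probe sets below the filter, at 2.71 and 2.48.

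All 4 had every haloperidol array beneath every control array, as had 88.4% of all probe sets below the filter, so this is no result about Aqp1, Folr1 or Igf2. In a fit without the filter the haloperidol differences of the 4 were -0.04 to -0.11, with limma adjusted p of 0.318 to 0.532, and the clozapine differences 0.01 to 0.02. The r of Aqp1 with Ttr, -0.72 (exact permutation p = 0.0197, adjusted 0.0986, rho -0.533 with p = 0.148, r -0.739 without haloperidol 3 and control 1), lay close to the median of all probe sets below the filter, -0.651. These values do not show whether the RNAs were absent.

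**Figure D5:**
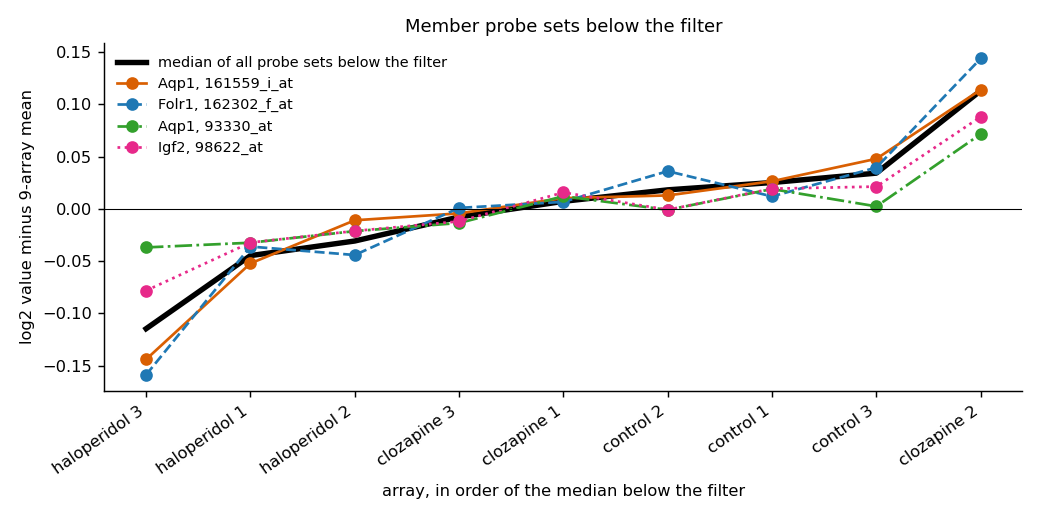
Log2 value minus the 9-array mean for the 4 member probe sets below the filter (coloured lines) and for the median of all 4969 probe sets below the filter (black line), with arrays in order of that median. The coloured lines follow the black one, from haloperidol 3 at the low end to clozapine 2 at the high end.

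Markers of other sources of these RNAs were set beside the members. Ependymal and ciliary genes passed the filter in 4 of 7 cases, with summed levels of -0.002 to 0.117 in controls, -0.025 to 0.109 with clozapine and -0.166 to -0.006 with haloperidol. Of these genes Mlf1, at 3.36 to 3.82, and Tekt1, at 3.4 to 3.78, lay near the filter of 3.448. Haloperidol and control arrays did not overlap for 21.7% of single tested probe sets. Oligodendrocyte genes passed in 7 of 8 cases. Their summed levels ranged from -0.268 to 0.196 in controls, -0.096 to 0.204 with clozapine and -0.144 to 0.058 with haloperidol. The summed level of the choroid plexus list itself ranged from -0.055 to 0.025 in controls, -0.002 to 0.013 with clozapine and -0.056 to 0.078 with haloperidol, with haloperidol 3 highest. The pituitary hormone gene Prl was high only in haloperidol 3, the array in which Ttr and Folr1 were also highest. In that array Gh reached 12.57. Chga stood at 7.79 in haloperidol 3 and 7.34 in control 1, against 5.98 to 6.90 elsewhere. Pomc, at 2.08 to 10.31, Cga, at 2.37 to 7.63, and Tshb, at 2.8 to 6.14, also spread widely over the 9 arrays. Lhb, at 0.72 to 0.83, Fshb, at 2.61 to 2.79, and Ghrhr, at 2.72 to 2.90, were low in all 9 arrays. The part of pituitary RNA in the Ttr and Folr1 values was not tested.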

How the data were processed

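RNA from 9 forebrains, 3 per treatment, was measured on 1 array each. The deposited values are log2 values per probe set that the authors made with GCRMA, per the submitters' processing notes. Version and settings are not given in the sources used here. GCRMA draws unexpressed probe sets to a narrow low range, where small differences can reflect background correction. Precision is limited by the number of arrays.

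Of 12488 probe sets, 66 control probe sets were left out. Symbols came from the platform annotation, updated through Entrez identifiers to RefSeq for GRCm38.p6 where it held them (10833 probe sets had 1 symbol, 396 several, 1193 none). No coordinates are given, since the array has no build. Limma 3.58.1 in R 4.3.3 was fitted to all 9 arrays with 1 mean per treatment, giving 6 residual and 2.03 prior degrees of freedom. P-values were two-sided and adjusted by Benjamini-Hochberg over 7453 probe sets. Correlations were tested by exact permutation over all pairings of the arrays, two-sided. Confidence intervals are at the 95% level.

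The members and gene lists were chosen with earlier results of these data known. Genes were named from those a rule allows: all members, choroid plexus genes above the filter, in each other list up to 4 of highest average and up to 3 of lowest unadjusted p, and the 10 most like Ttr. The low choroid plexus genes, Gh and the other pituitary genes below the filter, and Camk2a, Syt1, Col1a1 and Aebp1 were named after their values were seen. In lists each gene is its probe set with the highest average, and its summed level is the mean over genes of the log2 value minus the 9-array mean. The fit was tested on simulated data. Alternatives covered the filter, a floor at 4, centring, quantile normalization, a trend with robust prior, array weights, 6-array fits, a replicate block, a threshold of 0.10 and each array left out. List values without control 3 or haloperidol 3 were added after seeing the data.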

Additional observations from a re-analysis of the deposited data

How the results depend on the processing

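The count of member probe sets called was 0 in every contrast under all alternatives run, as was the count over all probe sets, where the 0.10 threshold was added after seeing the data. With the replicate block it was also 0; same-numbered arrays had correlations of deviations from -0.597 to 0.697, with 3 of 9 pairs over 0.1, so the numbers were not taken to pair the mice. Signs of small differences turned as follows, and the cause was not tested. With array weights, whose estimate stopped before full convergence, clozapine minus control was 0.0898 for Ttr, 0.0277 for Kl and 0.0306 for Folr1, haloperidol minus control was -0.0668 for Igfbp2, and clozapine minus haloperidol was 0.0053 for Folr1. With centred arrays haloperidol minus control was -0.0454 for Folr1 and -0.0068 for Igfbp2, and clozapine minus haloperidol was 0.0011 for Folr1. Quantile normalization gave -0.0067 for Igfbp2 with haloperidol. The r of Ttr with Kl was -0.013 after centring and -0.105 after quantile normalization, and without the 2 arrays farthest in Ttr r was -0.607 with Folr1 and -0.081 with Igfbp2. With each array left out, clozapine minus control ranged from -0.302 to 0.0438 for Ttr, -0.425 to 0.131 for Kl, -0.0649 to 0.0725 for Folr1 and -0.256 to 0.098 for Igfbp2. For Igf2 it stayed below 0, from -0.475 to -0.0355. Haloperidol minus control ranged from -0.255 to 0.163 for Folr1 and -0.112 to 0.142 for Igfbp2. Clozapine minus haloperidol ranged from -0.0082 to 0.518 for Kl, -0.172 to 0.245 for Folr1, -0.398 to 0.0415 for Igf2 and -0.297 to 0.0575 for Igfbp2. The filter at the 60th percentile, a log2 value of 5.153, left Folr1 untested. With 3 arrays per treatment, 1 animal could decide the sign of most member differences, and Aqp1 and the second probe sets of Igf2 and Folr1 were too close to background to show a difference.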
